A study of Mus musculus with 6 samples.

Results

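Liver stores glucose as glycogen, and the transcripts described here encode the enzymes that build and break down that store and the proteins that switch them. The 8 genes are Ugp2, Gys2, Gbe1, Pgm1 and Pygl, which encode enzymes, and Ppp1r3b, Ppp1r3c and Ppp1r3g, which encode targeting subunits of protein phosphatase 1. They were chosen by name, with earlier results of these data known, and all 8 were found among the 49212 rows of the deposited gene tables. All libraries came from livers of C57BL/6J mice at 15 weeks of age. In 3 of them the treatment label is a DHT pellet in PCOS mice, and in the other 3 it is placebo. DHT is dihydrotestosterone, an androgen, and PCOS is polycystic ovary syndrome. The series title asks about androgen and the hepatic circadian system. The labels give no sex, dose, duration of treatment, feeding state or hour of collection, and do not say that each library came from a separate animal, so p-values reflect only the spread among these samples, which may be technical.

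Glycogen synthase adds glucose units from UDP-glucose to a growing chain, the branching enzyme makes the branch points, and glycogen phosphorylase releases glucose 1-phosphate from the chain ends. Phosphorylation turns the phosphorylase on and the synthase off. Protein phosphatase 1 reverses both steps when a targeting subunit of the PPP1R3 family holds it on the glycogen particle, so these subunits help to set how active the synthase of a hepatocyte is.

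Libraries held between 41336844 and 60209462 counts. Levels are in counts-per-million (CPM) scaled by TMM, a correction for library composition, unless stated otherwise. Transcripts of the Y chromosome made up 145 to 169 CPM of all counts in the libraries labelled DHT and 1.02 to 2.16 CPM in placebo libraries. PCOS is a disorder of females, so these Y-linked transcripts go against the label. Xist took 0.116 to 0.556 CPM of all counts in libraries labelled DHT and 23.3 to 235 CPM in placebo libraries. By these transcripts the libraries labelled DHT look male and the placebo libraries female. Apparent sex separates the same libraries as the treatment, and the effects of the 2 cannot be told apart in any value below. Mitochondrial genes took 6.44 to 8.47% of counts in DHT libraries and 3.23 to 6.83% in placebo libraries. The 8 hepatocyte markers, which include albumin, summed to between 74318 and 91156 CPM in DHT libraries and between 96784 and 135548 CPM in placebo libraries. All 8 of those markers were tested and 0 were called by edgeR (2 at an unadjusted p under 0.05). DESeq2 called 1, Cps1, where it called 7.02% of all genes. With the replicate number as a block, Tat (log2 fold change −1.17, edgeR adjusted p = 0.0247) and Cps1 (−1.46, edgeR adjusted p = 0.00834) were called lower, where that fit called 10.7% of all genes. The 6 stellate cell markers summed to 188 to 265 CPM in DHT libraries and 275 to 492 CPM in placebo libraries. Of these 6, 0 were called by edgeR and 1 had an unadjusted p under 0.05. Sums of macrophage, endothelial, cholangiocyte, erythroid and neutrophil markers overlapped between the groups, and edgeR called 0 of those markers. An unadjusted p under 0.05 was found for 3 of the 5 cholangiocyte markers tested and 1 of the 6 erythroid markers, beside 15.9% of all genes. In the other sets named here it was found for 0. DESeq2 called the cholangiocyte markers Krt19 (log2 fold change −1.52) and Epcam (−0.92) lower and the erythroid marker Alas2 (1.91) higher. It called no other marker of these sets. The fit with the replicate block also called Krt19 lower (−1.48, edgeR adjusted p = 0.00833) and Alas2 higher (1.97, edgeR adjusted p = 2.69e-05). Without the block, Alas2 had an edgeR adjusted p of 0.0523. Placebo 3 stood furthest from its group: its counts differed from those of placebo 1 and 2 by a chi-square per degree of freedom of 687 and 667, against 233 between those 2, and limma voom gave it a quality weight of 0.192, where the other 5 libraries had 0.765 to 2.75. The part of these differences in the values below was not tested.

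The 2 genes that passed the test, of the 8, both encode targeting subunits. Ppp1r3c transcripts rose 6.06-fold in the libraries labelled DHT, and Ppp1r3g transcripts fell to 0.432 ± 0.239 CPM there, against 5.76 ± 1.89 CPM in placebo (SD, n = 3 each). The other 6 genes did not pass the test. By edgeR's quasi-likelihood test with Benjamini-Hochberg adjustment over 15126 genes, at an adjusted p under 0.05, 1.65% of all genes were called, 0.952% higher and 0.701% lower. All 8 members passed the low-count filter, of which 1 was called higher and 1 lower. Ppp1r3g passed through its placebo libraries, since only 2 of its 3 DHT libraries reached the 0.185 CPM needed. In whole-liver RNA, fewer cells of a type and less RNA per cell cannot be told apart.

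**Figure D1:**
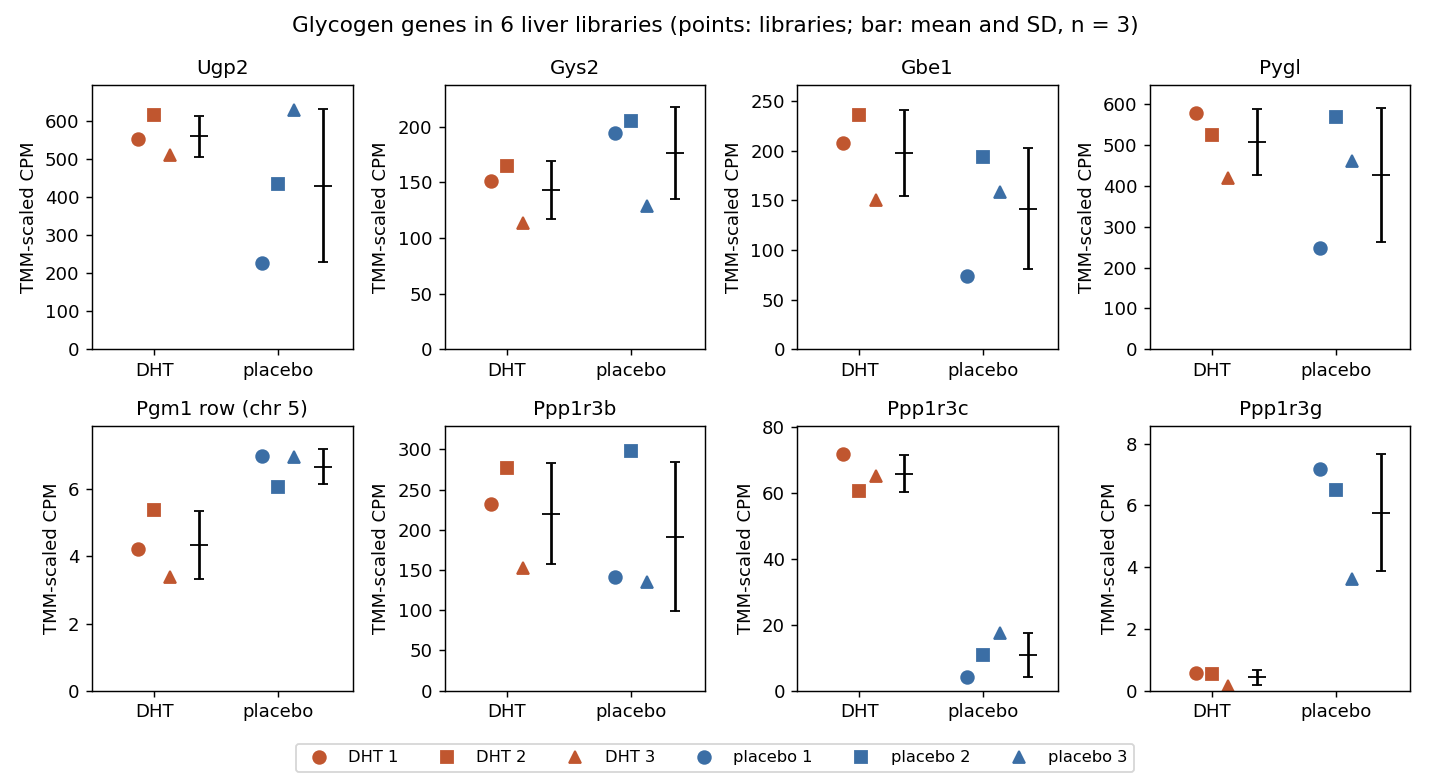
TMM-scaled CPM (vertical axes, each from 0) of the 8 genes in the 3 DHT and 3 placebo libraries. Points are libraries and the bars beside them are the mean and SD. Ppp1r3c lies between 60.6 and 71.8 CPM in DHT libraries, above every placebo library, and Ppp1r3g lies at or below 0.584 CPM in DHT libraries, under every placebo library.

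Ppp1r3c encodes PTG (protein targeting to glycogen), a scaffold that brings protein phosphatase 1 together with glycogen synthase and phosphorylase and whose overexpression in hepatocytes raises glycogen. The gene lies on GRCm38 chromosome 19, from 36731737 to 36736653 on the minus strand. DHT libraries 1, 2 and 3 held 71.8, 60.6 and 65.0 CPM (4425, 3391 and 2905 counts), against 4.23, 10.8 and 17.6 CPM (246, 546 and 855 counts) in placebo libraries 1, 2 and 3. The DHT libraries were close together, with a coefficient of variation of 8.58%, whereas the placebo libraries spread over a 4.15-fold range, and the groups did not overlap. The log2 fold change (DHT minus placebo) was 2.60 ± 0.48 (SE, adjusted p = 0.0407). That call was kept without placebo 3 (adjusted p = 0.00307) and was lost when any of the other 5 libraries was left out, with adjusted p-values up to 0.124. Without placebo 1, 2 and 3 the log2 fold change was 2.19, 2.57 and 3.13, so the size of the change depended most on the placebo libraries, which differed among themselves.

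Ppp1r3g encodes a targeting subunit that in mouse liver is known to be low in fasting and induced by feeding. It lies on chromosome 13, from 35958839 to 35970388 on the plus strand. DHT libraries 1, 2 and 3 held 36, 31 and 7 counts (0.584, 0.554 and 0.157 CPM), against 418, 329 and 176 counts (7.19, 6.48 and 3.62 CPM) in placebo libraries 1, 2 and 3. In both groups the library numbered 3 was the lowest, and the groups did not overlap. The log2 fold change was −3.71 ± 0.53 (SE, adjusted p = 0.0155), which is 13.1-fold lower in the libraries labelled DHT. The call was kept without DHT 3 or without placebo 3 and was lost without DHT 1, DHT 2, placebo 1 or placebo 2, with adjusted p-values up to 0.0736. With 1 library left out, the estimate stayed between −3.99 and −3.33 on the log2 scale. At 7 to 36 counts a DHT library gives the level less precisely than the direction.

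**Figure D2:**
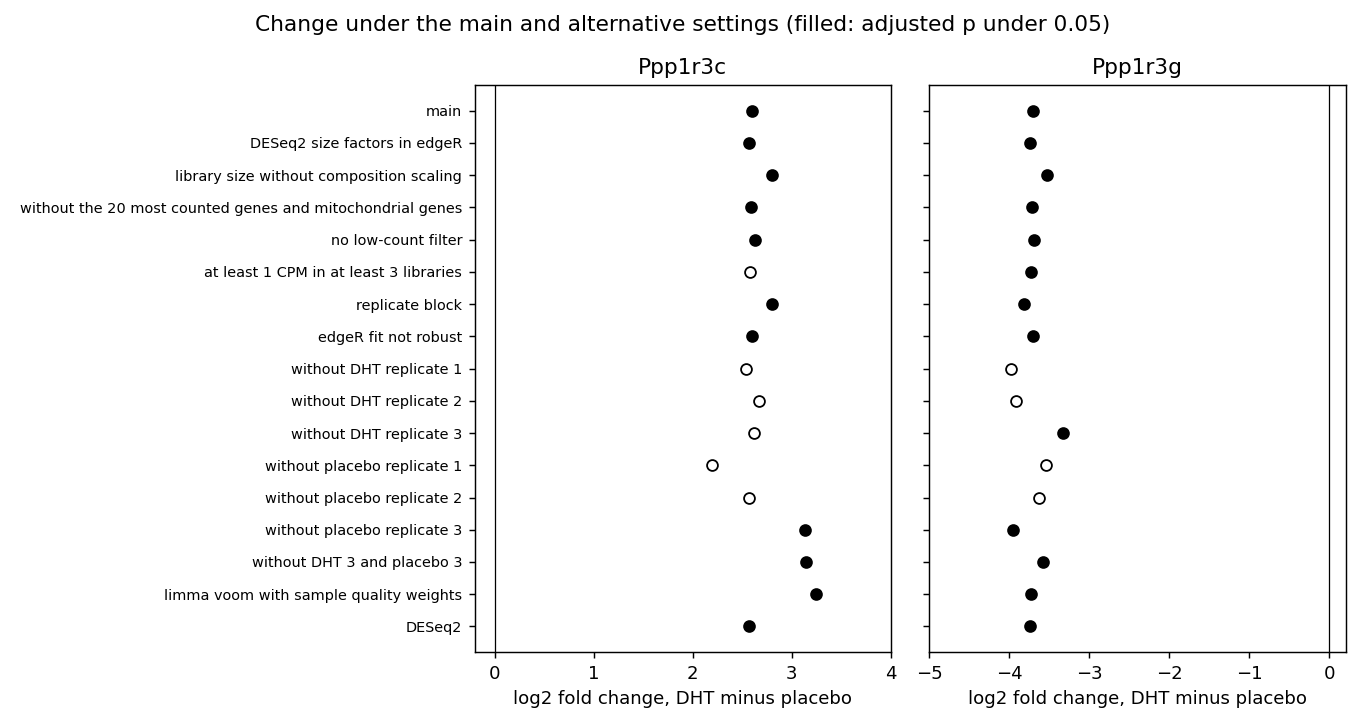
Log2 fold change (horizontal axes, DHT minus placebo) of Ppp1r3c and Ppp1r3g in the fit reported and in 16 alternatives, 1 row each. Filled points passed an adjusted p of 0.05. Ppp1r3c passed in 10 and Ppp1r3g in 12 of the 16, and no alternative moved a point across 0.

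The windows upstream of the RefSeq starts of the 2 genes are shown because these are the members whose transcripts changed. Each is 197 bases, 5′ to 3′ on the gene's strand, from RefSeq on GRCm38.p6, and ends before the first exon counted in that region. Capitals mark matches to the motifs searched on both strands: the E-box CACGTG, which clock factors such as CLOCK and BMAL1 can bind, the CCAAT box (CCAAT), the GC box (GGGCGG) and the androgen response element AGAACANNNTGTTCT. The motifs do not overlap each other in these windows.
Ppp1r3c, chr19:36736658-36736854, minus strand: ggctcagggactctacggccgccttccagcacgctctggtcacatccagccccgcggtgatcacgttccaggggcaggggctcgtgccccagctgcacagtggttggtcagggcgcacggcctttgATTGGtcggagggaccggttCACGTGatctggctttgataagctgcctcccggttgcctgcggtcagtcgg
Ppp1r3g, chr13:35967656-35967852, plus strand: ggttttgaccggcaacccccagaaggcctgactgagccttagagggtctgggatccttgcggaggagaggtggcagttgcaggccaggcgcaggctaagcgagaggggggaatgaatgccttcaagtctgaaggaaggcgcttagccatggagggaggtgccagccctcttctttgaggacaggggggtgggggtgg

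The Ppp1r3c window held 1 E-box, which begins 104 bases before the RefSeq start, and 1 CCAAT box in reverse orientation 124 bases before it. The Ppp1r3g window held none of the 4 motifs. That window lies inside the counted gene, which begins at 35958839 in the deposited tables. The bases upstream of 35958839 were not searched. Nor were those between the window's end at 35967852 and the RefSeq start at 35967906. The absence of motifs therefore covers the printed window only. In the other windows, too, the bases next to the RefSeq start were not searched. Of 32851 RefSeq windows of the same length and place, 4.24% held the E-box, 27.9% the CCAAT box, 24.1% the GC box and 0.009% the androgen response element. RefSeq windows were found for 6 of the 8 genes, with a pair of them for Ugp2, and none for Gys2 or Ppp1r3b. Of these 7 windows only that of Ppp1r3c held the E-box. Outside the 8 genes, the window of Irs1, a gene of the lists described below, also held it. A match describes these letters only.

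Ppp1r3b encodes the liver subunit GL, whose binding to active phosphorylase links glycogen breakdown to the arrest of synthesis. It lies on chromosome 8, from 35375739 to 35388139. Its level was 232, 276 and 152 CPM in DHT libraries 1, 2 and 3 and 142, 298 and 135 CPM in placebo libraries 1, 2 and 3. The groups overlapped, since placebo 2 held the highest level of all 6 and placebo 3 the lowest. The log2 fold change was 0.20 ± 0.39 (SE, adjusted p = 0.839).

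The shares that the 3 subunits Ppp1r3b, Ppp1r3c and Ppp1r3g took of the PPP1R3 family did not overlap between the 2 groups. Those of Ppp1r3a, Ppp1r3d, Ppp1r3e and Ppp1r3f did overlap. For levels, 23.6% of all genes tested had groups that did not overlap. Levels were compared per kilobase of exon (CPM per kb) over the 7 family genes Ppp1r3a to Ppp1r3g. Ppp1r3c made up 40.1, 32.2 and 48.0% of the summed level in DHT libraries 1, 2 and 3, against 5.35, 6.97 and 21.2% in placebo libraries 1, 2 and 3. Ppp1r3b made up 56.6, 64.2 and 49.2% in DHT libraries and 78.4, 84.5 and 71.2% in placebo libraries. It was the most abundant subunit in all 6 libraries, but in DHT 3 Ppp1r3c came close to it. Ppp1r3g made up 0.352, 0.317 and 0.125% in DHT libraries and 9.81, 4.53 and 4.72% in placebo libraries. The summed level of the family was 65.9, 69.3 and 49.8 CPM per kb in DHT libraries and 29.1, 56.8 and 30.4 CPM per kb in placebo libraries, with overlap between placebo 2 and the DHT libraries. These shares rest on the same counts as the changes above. A higher share of Ppp1r3c also lowers that of Ppp1r3b, whose own level did not pass the test. Two-sided exact permutation tests gave p = 0.1 for each of these 3 shares, the smallest that 3 libraries against 3 can give (0.233 adjusted over the 7 shares of the family), and p = 0.2 for the summed level.

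**Figure D3:**
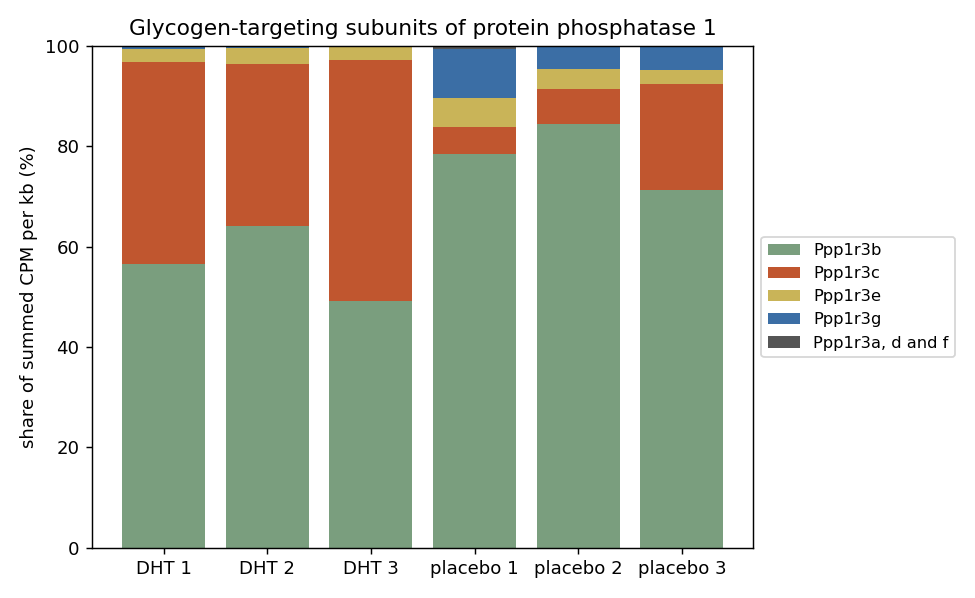
Share of each targeting subunit gene in the summed CPM per kb of the 7 Ppp1r3 genes (vertical axis, %), 1 bar per library with the 3 DHT libraries on the left. The Ppp1r3c part is 32.2 to 48.0% in DHT libraries and 5.35 to 21.2% in placebo libraries, and the Ppp1r3g part is visible mainly in placebo libraries.

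The remaining family members were low. Ppp1r3e, another subunit found in liver, had 4.54, 5.51 and 3.15 CPM in DHT libraries 1, 2 and 3, and it averaged 3.92 CPM in placebo (log2 fold change 0.17 ± 0.41, SE, adjusted p = 0.874). Its exons overlap those of Gm37271 on the opposite strand over 21.5% of their length, so its reads are uncertain. Ppp1r3a, the subunit of skeletal muscle, and Ppp1r3f did not pass the low-count filter. Both Ppp1r3d and Ppp1r3f took at most 0.525% of the family in any library.

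For Ugp2, Gys2 and Gbe1, of the synthesis side, the fold range among placebo libraries was wider than the fold between the groups. Ugp2 encodes UDP-glucose pyrophosphorylase, which makes the activated glucose used by the synthase (chromosome 11, 21321138 to 21371201). Its level was 552, 616 and 510 CPM in DHT libraries 1, 2 and 3 and 226, 434 and 628 CPM in placebo libraries 1, 2 and 3. Placebo 3 lay above every DHT library and placebo 1 below all others, a 2.77-fold range within placebo, and the log2 fold change was 0.38 ± 0.38 (SE, adjusted p = 0.648). Exons of Ugp2 overlap those of Gm12043 on the opposite strand over 2.54% of their length.

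Gys2 encodes the liver form of glycogen synthase, the enzyme that lengthens the chain (chromosome 6, 142422613 to 142473109). Its level was 151, 164 and 114 CPM in DHT libraries 1, 2 and 3 and 195, 205 and 129 CPM in placebo libraries 1, 2 and 3. In both groups the library numbered 3 was the lowest and that numbered 2 the highest, and the groups overlapped through placebo 3. The log2 fold change was −0.30 ± 0.28 (SE, adjusted p = 0.633), and it stayed below 0 whichever of the 6 libraries was left out. Of the 2 glycogen synthase genes, Gys2 took 99.3 to 99.6% of the summed CPM per kb in DHT libraries and 99.4 to 99.5% in placebo libraries, so Gys1, the muscle form, was a trace in both.

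Gbe1 encodes the branching enzyme (chromosome 16, 70313949 to 70569716). Its level was 208, 236 and 151 CPM in DHT libraries 1, 2 and 3 and 74.3, 193 and 158 CPM in placebo libraries 1, 2 and 3. Placebo 1 was far below the others, and the other placebo libraries lay inside the DHT range. The log2 fold change was 0.48 ± 0.38 (SE, adjusted p = 0.561).

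The symbol Pgm1 needs care, because the deposited tables use an older naming. Their Pgm1 row lies on chromosome 5, from 64092950 to 64128351, at a gene that GENCODE M21 and RefSeq on this build call Pgm2. The row named Pgm2 lies on chromosome 4, from 99929414 to 99987294, at the gene those sources call Pgm1, the phosphoglucomutase that interconverts glucose 1-phosphate and glucose 6-phosphate at the entry to and exit from glycogen. The protein of the chromosome 5 gene is known in humans mainly as a phosphopentomutase.

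The Pgm1 row of chromosome 5 held 4.24, 5.40 and 3.40 CPM in DHT libraries 1, 2 and 3 and 6.98, 6.07 and 6.97 CPM in placebo libraries 1, 2 and 3. The groups did not overlap, but the log2 fold change of −0.62 ± 0.27 (SE) missed the threshold (unadjusted p = 0.053, adjusted p = 0.319). The Pgm2 row of chromosome 4 was far more abundant, with 268, 241 and 180 CPM in DHT libraries 1, 2 and 3 and 250, 335 and 111 CPM in placebo libraries 1, 2 and 3. Placebo libraries bracketed the DHT libraries in this row, and the log2 fold change was −0.01 ± 0.41 (SE, adjusted p = 0.991). Its exons overlap those of Itgb3bp on the opposite strand over 13.6% of their length. Per kilobase, the Pgm1 row took 1.75 to 2.46% of both rows together in DHT libraries and 2.00 to 6.63% in placebo libraries. Of these rows only the low one had groups that did not overlap, as did 23.6% of all genes tested, and neither row was called.

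On the side of breakdown, Pygl encodes the liver form of glycogen phosphorylase (chromosome 12, 70190811 to 70231488). Its level was 578, 523 and 419 CPM in DHT libraries 1, 2 and 3 and 247, 568 and 460 CPM in placebo libraries 1, 2 and 3. Placebo 1 was low and the other 2 placebo libraries lay within the DHT range. The log2 fold change was 0.25 ± 0.35 (SE, adjusted p = 0.754), and its sign was not settled, since without placebo 1 it was −0.042. Pygl took 99.1 to 99.4% of the summed CPM per kb of the 3 phosphorylase genes in DHT libraries and 96.6 to 99.4% in placebo libraries.

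The synthase was set against the phosphorylase within each library, which removes library scaling. The ratio of Gys2 to Pygl, in CPM per kb, was 0.377, 0.453 and 0.391 in DHT libraries 1, 2 and 3 and 1.13, 0.520 and 0.404 in placebo libraries 1, 2 and 3. Placebo 1 was the only library in which the synthase transcript exceeded the phosphorylase transcript, while placebo 3 lay inside the DHT range. The mean log2 ratio was −1.30 ± 0.14 in DHT libraries and −0.69 ± 0.78 in placebo libraries (SD, n = 3 each), a difference of −0.61. A two-sided exact permutation test gave p = 0.2, where 3 libraries against 3 can reach 0.1 at best. Without placebo 1 the difference was −0.18.

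**Figure D4:**
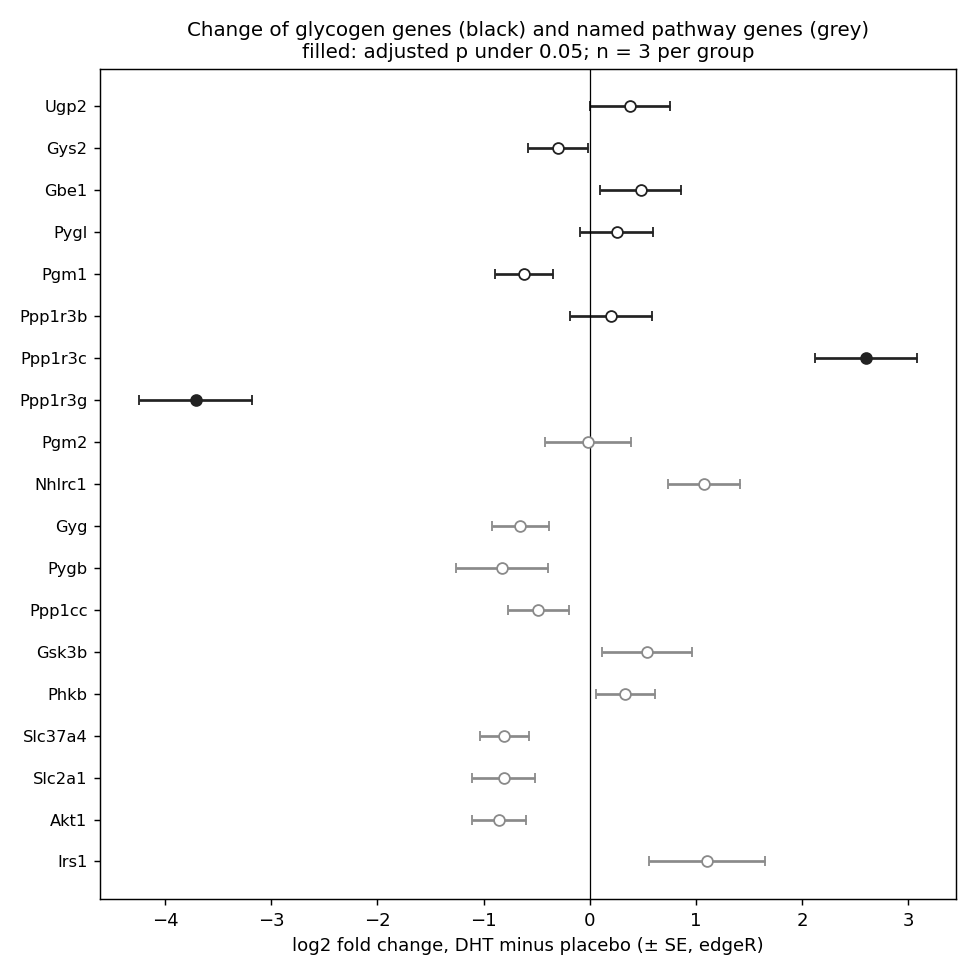
Log2 fold change (horizontal axis, DHT minus placebo, ± SE, n = 3 per group) of the 8 genes in black and of the genes named from the 4 lists, with Pgm2, in grey. Filled points passed an adjusted p of 0.05, which among these genes were Ppp1r3c at 2.60 and Ppp1r3g at −3.71. The Pgm1 point is the row of chromosome 5.

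In order of level per kilobase, the genes ran Ugp2, Pygl, Gys2, Gbe1, Ppp1r3b, Ppp1r3c, Pgm1 and Ppp1r3g in DHT libraries, with means of 182, 132, 53.9, 37.0, 35.4, 24.2, 1.68 and 0.171 CPM per kb. Within that order the ranges of Gys2 and Gbe1, of Gbe1 and Ppp1r3b, and of Ppp1r3b and Ppp1r3c overlapped, while the other neighbours were apart. In placebo libraries the order was Ugp2, Pygl, Gys2, Ppp1r3b, Gbe1, Ppp1r3c, Pgm1 and Ppp1r3g, with means of 140, 111, 66.4, 30.8, 26.5, 3.99, 2.58 and 2.29 CPM per kb. There the ranges of neighbours overlapped except between Gys2 and Ppp1r3b and between Gbe1 and Ppp1r3c. In placebo, Ppp1r3c thus lay with the 2 least abundant genes, and in DHT libraries its level per kilobase reached the range of Ppp1r3b.

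Libraries also differed within each group. Placebo 1 held the lowest level of all 6 libraries for 4 of the 8 genes, Pygl, Gbe1, Ugp2 and Ppp1r3c. DHT 3 was the lowest DHT library for 7 of the 8, all but Ppp1r3c. Without placebo 3 the same 2 of the 8 were called, Ppp1r3c at 3.13 (adjusted p = 0.00307) and Ppp1r3g at −3.95 (adjusted p = 0.00172) on the log2 scale, while 862 genes were called in all, against 250 with it. The groups did not overlap in 3 of the 8 genes (Pgm1, Ppp1r3c and Ppp1r3g), beside 23.6% of all genes tested.

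The genes whose pattern was most like that of a member were ranked by Pearson's r of log2 CPM over the 6 libraries among 11957 genes. For Gys2 they were Sema5a (r = 0.996), Lrpap1 (r = 0.992) and Txnrd3 (r = 0.992). For Ppp1r3g they were Napa, Arpin and Kng2, with r between 0.992 and 0.993. None of these 6 was called (lowest adjusted p = 0.193, for Kng2). Their log2 fold changes were −1.30, −0.29 and −0.40 for Sema5a, Lrpap1 and Txnrd3, beside −0.30 for Gys2, and between −0.76 and −0.30 for the 3 most like Ppp1r3g, beside −3.71 for Ppp1r3g. The points share their libraries and depth, and r is a description.

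Beyond the 8 genes, 51 others were read from 4 lists of glycogen enzymes, regulatory kinase and phosphatase subunits, hexose entry and exit, and hormone signalling. Of the 48 that could be tested, 0 were called by edgeR, 5 (10.4%) had an unadjusted p under 0.05 beside 15.9% of all genes, DESeq2 called 3 and limma voom called 1, where those tools called 7.02% and 4.67% of all genes. Without placebo 3, 2 of them were called, Slc2a1 and Akt1, where that fit called 5.54% of all genes. With the replicate number as a block, 4 of the 48 were called, where that fit called 10.7% of all genes. The median log2 fold change was −0.04 over these genes and −0.02 over all genes tested.

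Of 12 other glycogen enzymes and glycogen-bound proteins, 0 were called, 2 had an unadjusted p under 0.05 and the median log2 fold change was −0.06. Nhlrc1, which encodes malin, the ubiquitin ligase lost in some patients with Lafora disease, had 2.19 to 3.31 CPM in DHT libraries and 0.925 to 1.44 CPM in placebo libraries. Its groups did not overlap and its log2 fold change was 1.08 ± 0.34 (SE, adjusted p = 0.185), a gene that DESeq2 called (adjusted p = 0.049). Malin is known in cell culture to mark PTG, the product of Ppp1r3c, for degradation. Gyg, the self-glucosylating primer glycogenin, had 5.42, 7.97 and 5.26 CPM in DHT libraries and 8.94, 9.73 and 10.7 CPM in placebo libraries, a change of −0.65 ± 0.27 on the log2 scale (adjusted p = 0.289). Pygb, the brain form of phosphorylase, had −0.83 ± 0.43 (adjusted p = 0.38), and its groups overlapped.

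Of 14 subunits of phosphorylase kinase, protein phosphatase 1 and GSK3, 11 were tested and 0 were called, 0 had an unadjusted p under 0.05, and the median log2 fold change was 0.07. The 3 with the smallest p were Ppp1cc, a catalytic subunit of protein phosphatase 1 (−0.48 ± 0.28, adjusted p = 0.438), Gsk3b, a kinase that inhibits glycogen synthase (0.54 ± 0.42, adjusted p = 0.558), and Phkb, the β subunit of phosphorylase kinase (0.33 ± 0.28, adjusted p = 0.578). In all 3 the groups overlapped. The called genes Ppp1r3c and Ppp1r3g encode subunits that target the phosphatase to glycogen, as do Ppp1r3b and Ppp1r3e, which were not called. The catalytic subunits of the phosphatase did not pass the test. A difference between targeting and catalytic subunits was not tested.

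Of 12 genes of hexose entry and exit, 0 were called, 2 had an unadjusted p under 0.05, and the median log2 fold change was −0.12. Slc37a4, which encodes the transporter that carries glucose 6-phosphate into the endoplasmic reticulum, had 144, 130 and 127 CPM in DHT libraries 1, 2 and 3 and 207, 245 and 249 CPM in placebo libraries 1, 2 and 3. Its groups did not overlap, and the change was −0.80 ± 0.23 on the log2 scale (adjusted p = 0.155, and 0.0124 by DESeq2). Slc2a1, a glucose transporter gene of many cell types, had −0.81 ± 0.30 (adjusted p = 0.247). With the replicate block it was called (adjusted p = 0.0494), as was G6pc, the catalytic subunit of glucose 6-phosphatase, at 1.16 on the log2 scale (adjusted p = 0.00766, and 0.373 without the block). G6pc was chosen after its values were seen.

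Of 13 genes of insulin, glucagon and adrenergic signalling, 0 were called, 1 had an unadjusted p under 0.05 and the median log2 fold change was 0.0048. Akt1, a kinase downstream of insulin, had 36.3, 35.0 and 32.0 CPM in DHT libraries 1, 2 and 3 and 63.2, 76.9 and 47.2 CPM in placebo libraries 1, 2 and 3. Its groups did not overlap and its log2 fold change was −0.86 ± 0.25 (adjusted p = 0.16). It was called by DESeq2 (adjusted p = 0.0327), by limma voom (0.0328) and with the replicate block (0.0329). Irs1, an insulin receptor substrate, had 1.11 ± 0.55 (adjusted p = 0.361, and 0.0417 with the replicate block), but its exons overlap those of Gm9747 on the opposite strand over 30.9% of their length.

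Ppp1r3c is also expressed in muscle and fat, and markers of both were measured beside it. The 8 skeletal muscle markers summed to 4.63 to 4.93 CPM in DHT libraries and 6.52 to 12.9 CPM in placebo libraries, with Ckm, Myh1 and Pvalb at 0 in all 6. Of these 8, 2 passed the low-count filter, Des and Mylpf, and neither was called. Des is also among the stellate cell markers, so the sum is not of muscle alone. The 6 adipocyte markers summed to 19.3 to 70.4 CPM in DHT libraries and 5.79 to 22.1 CPM in placebo libraries. Of these 6, Lep was at 0 in all libraries, and Adipoq and Plin1 had at most 1 count in a DHT library and 2 in a placebo library. The sum was set by Fabp4 and by Cfd, which had 270, 803 and 2475 counts in DHT libraries 1, 2 and 3 and 3, 4 and 7 in placebo libraries 1, 2 and 3. Of the 2 adipocyte markers that passed the low-count filter, Cfd, which encodes adipsin, was called higher (log2 fold change 8.07, edgeR adjusted p = 0.0134), also by DESeq2 and with the replicate block, and Fabp4 was not called. The part of fat cells in the values of Ppp1r3c was not tested.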

How the data were processed

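Liver RNA was sequenced in 6 libraries, 3 per group, grouped by the treatment label. The authors deposited 1 table of raw counts per library, whole numbers per gene with exon coordinates and length, per the file headers. Per the submitters' processing notes, the build was GRCm38 and the tools were STAR 2.5.2b, Trimmomatic 0.36, Subread 1.5.2 and featureCounts. For the strand setting and for multiply mapped reads the sources used here do not give the choice, so counts of genes that overlap on opposite strands are uncertain. Of 49212 row symbols, 46885 occur in GENCODE M21, and members were matched to it by coordinates.

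DHT and placebo were compared in R 4.3.3 with edgeR 4.0.16: filterByExpr by group, TMM scaling (factors 0.9214 to 1.082), and the robust quasi-likelihood test without covariates, adjusted by Benjamini-Hochberg over all 15126 genes tested. The SE is the log2 fold change divided by the square root of F. CPM per kb divides TMM-scaled CPM by the deposited exon length. Alternatives were other scalings and filters, the replicate number as a block, a fit that was not robust, DESeq2 1.42.0, limma 3.58.1 voom with quality weights, and leaving out each library; leaving out both libraries numbered 3 was added after seeing the data. All pairs of libraries differed beyond sampling noise (lowest chi-square per degree of freedom 104.6).

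The titles number the libraries 1 to 3 in both groups and name no shared litter or day. Deviations from the group means correlated by 0.336, 0.19 and 0.649 across 11957 genes in pairs 1, 2 and 3. The block fit treated the numbers as pairing the libraries, which the labels do not state. Not every library correlated best with its own number: DHT 1 correlated more with placebo 2 (0.484) than with placebo 1, and DHT 2 more with placebo 1 (0.33) than with placebo 2. Calls of the block fit therefore rest on a pairing that was not established.

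Members and gene lists were chosen with earlier results of these data known. The text names all members, Pgm2, the called genes or otherwise the 3 with the smallest p in each list, and the 3 genes most like Gys2 and most like the member with the smallest p, among genes with a mean of at least 1 CPM (log2 CPM with a prior count of 2). Some genes that this rule picks from the lists are not reported here. They remain in the fit and in the counts and medians of their lists. No column of the tables was left unassigned to a library.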

Additional observations from a re-analysis of the deposited data

How the results depend on the processing

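The direction of Ugp2, Gys2, Gbe1, Pgm1, Ppp1r3c and Ppp1r3g was the same in all 16 alternatives. On the log2 scale and with 1 library left out, Pygl ran from −0.042 (without placebo 1) to 0.50 and Ppp1r3b from −0.0031 (without placebo 3) to 0.66. Of the 8 members, 2 were called; with at least 1 CPM in at least 3 libraries it was 1, because Ppp1r3c missed the threshold (adjusted p = 0.0552), and leaving out 1 library gave 0 to 2. The 250 genes called in all became 1621 with the replicate block, 521 without the low-count filter, 707 with limma voom, 1062 with DESeq2, 448 without both libraries numbered 3 (added after seeing the data), and 84 to 862 when 1 library was left out. The loss of calls with 1 library fewer therefore concerned the whole table and not these genes alone; the cause was not tested. Of the other pathway genes, 4 were called with the replicate block, 3 with DESeq2 and 1 with limma voom, and 0 to 2 when 1 library was left out. The block changed no call among the 8 members. For the log2 ratio of Gys2 to Pygl, leaving out 1 library gave differences between −0.92 and −0.18, and the block gave −0.61 (exact sign-flip p = 0.25, the smallest that 3 pairs allow). Over all genes tested, the median log2 fold change was 0.17 with library size alone and −0.02 with TMM. Ppp1r3g rests on 7 to 36 counts per DHT library, which limits its level there.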
